A study of Zea mays with 6 samples.

Results

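Expansins are the proteins that let plant cell walls yield during growth, and the deposited gene table of maize root tips holds 95 of them among 45953 genes. They were chosen by the word expansin in the gene name or product description, and sorted by that description into 45 alpha-expansins, 45 beta-expansins and 5 expansin-like genes. Bulk messenger RNA was compared between root tips of plants under negative pressure irrigation (NPI), in which water is drawn from a source kept at less than atmospheric pressure, and root tips of plants under DI. The labels expand DI in one field as deficit irrigation and in another as drip irrigation, so only the abbreviation is used. There were 3 libraries per group, and neither the maize line nor the age of the plants was given in the labels. The labels do not say whether libraries of a group came from separate plants, so p-values describe the spread among these libraries alone, and that spread may be technical.

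Expansins are secreted proteins that loosen the contacts between cellulose and other wall polymers without cutting them, and they act best in an acidic wall. Auxin-driven proton pumps acidify the wall, which links expansins to the acid growth of roots and shoots. Alpha-expansins act in the walls of most land plants. Beta-expansins are numerous in grasses, where one branch forms the group of pollen allergens and other members act in vegetative tissue. Expansin-like proteins share the same fold, and a wall-loosening activity has not been established for them. Roots grow by division near the tip and by elongation just behind it, and root hairs emerge where elongation ends, so a root tip sample mixes zones that use different expansins.

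The annotation terms in the deposited table follow these classes. The term extracellular region was attached to all 45 alpha-expansins, all 45 beta-expansins and 4 of the 5 expansin-like genes. Plant-type cell wall organization was attached to all 45 alpha-expansins and to 0 beta-expansins, whereas sexual reproduction was attached to all 45 beta-expansins and to 0 alpha-expansins. Many members carried one shared product description, with 32 beta-expansins described as Expansin-B4 and 22 alpha-expansins as Expansin-A11, so the gene identifier is given with every name. Near-identical copies may share counts, and the sources used here do not give how the counting handled them.

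Total estimated counts ran from 59900871 to 65917999 in NPI libraries and from 57792439 to 71957443 in DI libraries. The library NPI-2 stood apart from its group. Across the 21902 genes with a mean of at least 1 FPKM (fragments scaled to transcript length and library size), which were the genes tested, log2(FPKM + 1) in NPI-2 correlated with NPI-1 and NPI-3 at 0.838 and 0.814, and with the 3 DI libraries at 0.854 to 0.882. Over the 36 expansin genes tested, the correlation was 0.544 to 0.812 within NPI, 0.132 to 0.537 between NPI and DI libraries, and 0.646 to 0.885 within DI. These correlations run across genes, which are not independent replicates. Results that rest on NPI-2 are therefore given with and without it.

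Of the 95 expansin genes, 37 had no count in any library, 22 were detected below the filter and 36 were tested, namely 15 alpha, 17 beta and 4 expansin-like genes. A gene could pass the filter through its level in one group alone, so the tested genes do not stand for all members. Under edgeR's quasi-likelihood test with Benjamini-Hochberg adjustment over all 21902 genes, 0 expansin genes passed an adjusted p of 0.05, against a background of 0.0137% of all tested genes. The smallest adjusted p of an expansin gene was 0.0608. In simulated counts this test called 28 of 100 genes changed 4-fold, so 0 calls does not show equal levels. Before adjustment, 7 expansin genes had a p under 0.05 and a higher level in NPI (background 12.3%), and 6 had a p under 0.05 and a lower level in NPI (background 8.52%). Without NPI-2, edgeR called 5 expansin genes higher in NPI (background 6.65%) and 2 lower (background 5.19%). With all 6 libraries, DESeq2 called 7 higher (background 6.84%) and 6 lower (background 4.53%). The 13 genes called by DESeq2 were the same 13 that had an edgeR p under 0.05 before adjustment.

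The differences between NPI and DI were uneven across the family. The log2 difference, NPI minus DI, was positive for 15 and negative for 21 of the tested expansin genes, with a median of -0.16, against a median of 0.07 over all tested genes, of which 54.0% were positive. Its size exceeded 1 for 21 of the 36 genes, or 58.3%, against 22.6% of all tested genes. The median was -0.59 over alpha-expansins (5 positive, 10 negative), -0.25 over beta-expansins (7 positive, 10 negative) and 1.23 over expansin-like genes (3 positive, 1 negative). Without NPI-2 these class medians were -0.99, -0.71 and 1.60 in the same order of classes. All 3 NPI libraries were above all 3 DI libraries for 5 of the 36 tested expansin genes (background 13.0%) and below them for 7 of the 36 (background 13.7%). A lower level in bulk tissue may come from fewer cells of a type or from less RNA per cell, and these cannot be told apart here.

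**Figure D1:**
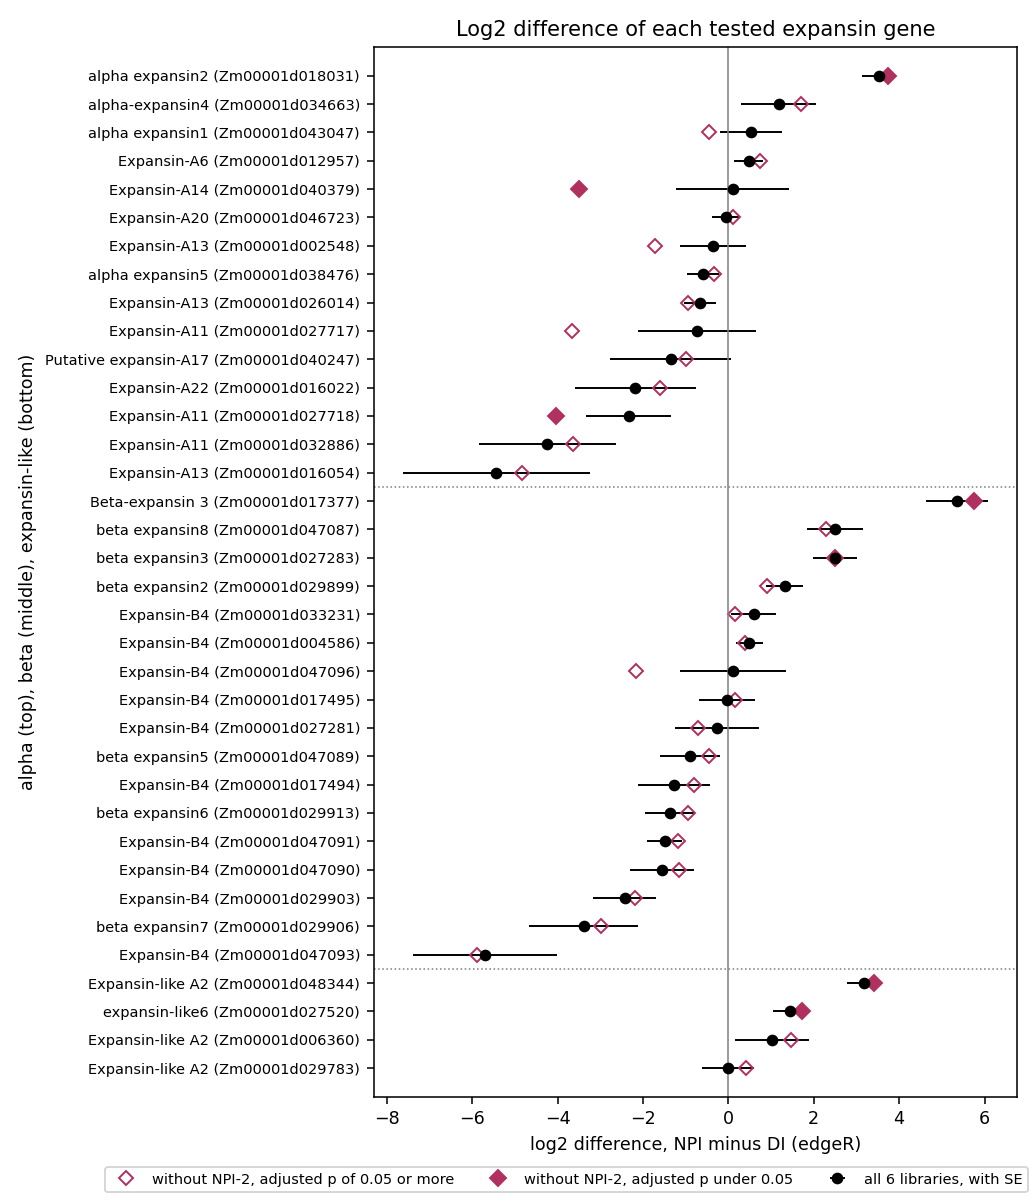
Log2 difference, NPI minus DI, of each of the 36 tested expansin genes by edgeR, with alpha-expansins at the top, beta-expansins in the middle and expansin-like genes at the bottom. Black points with bars are the values from all 6 libraries with their standard error, open diamonds are values without NPI-2, and filled diamonds mark the 7 genes with an adjusted p under 0.05 without NPI-2, of which 5 lie right of 0 and 2 left of it.

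The summed FPKM of a class includes the members below the filter. Alpha-expansins summed to 109, 302 and 151 FPKM in NPI-1, NPI-2 and NPI-3, against 274, 121 and 119 FPKM in DI-1, DI-2 and DI-3. Each group thus had 1 library far above its other libraries, and the means were 187 ± 101 FPKM in NPI and 171 ± 88.9 FPKM in DI (SD over 3 libraries each, p = 0.7 by an exact permutation test, two-sided). Without NPI-2 the difference of the alpha sums turned negative, at -41.0 FPKM, against 16.1 FPKM with it. It also turned negative without DI-2 (-8.93 FPKM) and without DI-3 (-10.2 FPKM). Beta-expansins summed to 236, 285 and 180 FPKM in the NPI libraries, against 213, 184 and 225 FPKM in the DI libraries, and the groups overlapped (exact permutation p = 0.5). Expansin-like genes summed to 226, 81.5 and 238 FPKM in the NPI libraries, against 117, 154 and 170 FPKM in the DI libraries, with NPI-2 the lowest of all 6 (exact permutation p = 0.6). With 3 libraries against 3 this exact permutation test cannot go below p = 0.1. All classes together made up 0.114% of all FPKM in NPI and 0.104% in DI.

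**Figure D2:**
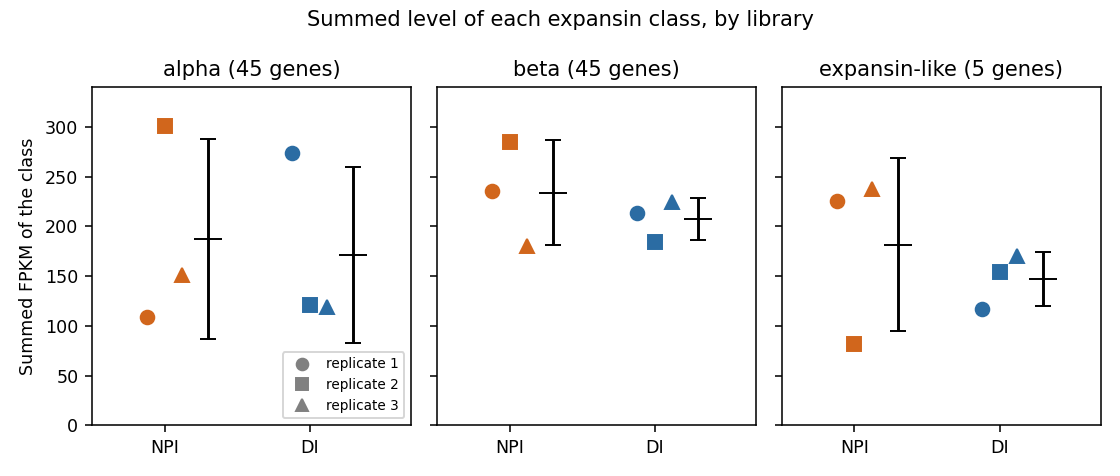
Summed FPKM of the 45 alpha-expansins, 45 beta-expansins and 5 expansin-like genes in each library, NPI in orange and DI in blue, with the mean and SD beside the points. NPI-2 and DI-1 are the 2 libraries with the highest alpha sums, and the NPI and DI points overlap in all 3 classes.

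Few genes carried each sum, and which gene led in NPI depended on NPI-2 for the alpha and beta classes. In NPI the leading beta-expansin was beta expansin2 with 28.9% of the beta sum, and in DI it was beta expansin6 with 20.5%. Without NPI-2 the leading beta-expansin in NPI was Zm00001d017377, described as Beta-expansin 3, with 27.8%, and beta expansin2 held 22.3%. The leading alpha-expansin was Zm00001d040379, described as Expansin-A14, with 30.5% of the alpha sum in NPI and 29.2% in DI. Its share in NPI came from NPI-2, and without that library it held 3.02% of the NPI sum while alpha expansin2 led with 34.6%. The leading expansin-like gene was Zm00001d029783, with 57.4% of its class in NPI and 78.3% in DI. In the library NPI-1, however, Zm00001d006360 led with 43.3%.

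**Figure D3:**
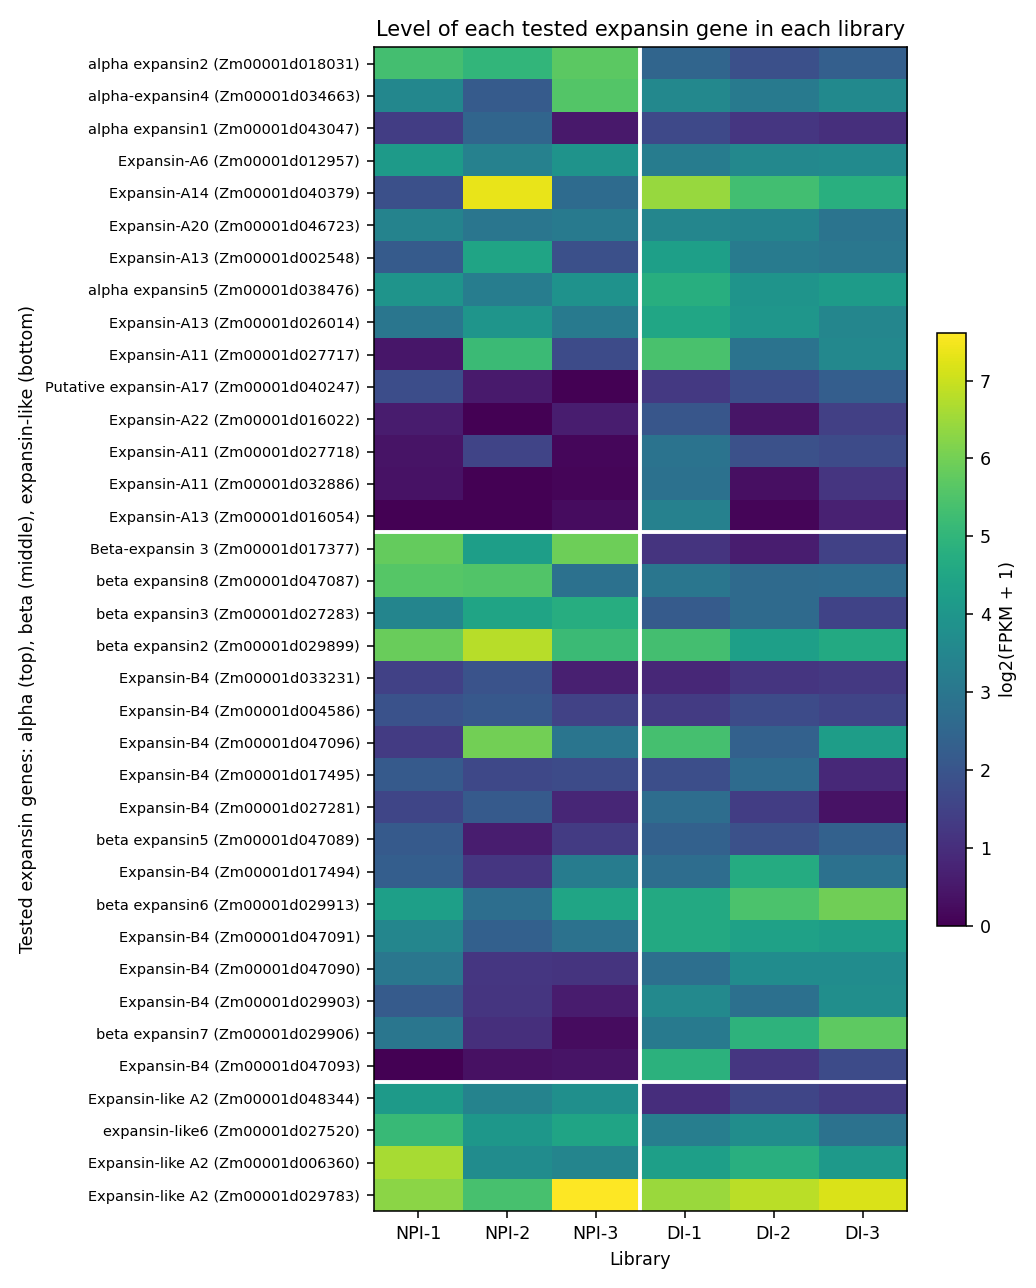
Level of each of the 36 tested expansin genes (rows) in each library (columns), as log2(FPKM + 1) on a colour scale, NPI libraries on the left of the white line and DI libraries on the right. Alpha expansin2, Beta-expansin 3 (Zm00001d017377) and Zm00001d048344 are brighter in all 3 NPI libraries, while Expansin-A14 (Zm00001d040379) is bright in NPI-2 and in DI and dark in NPI-1 and NPI-3.

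Among the alpha-expansins, alpha expansin2 (Zm00001d018031, chromosome 5, 212483686 to 212485307 in the deposited coordinates, for which the sources used here name no genome build) was the member with a higher level in NPI and a p under 0.05. It had 39.7, 31.4 and 50.6 FPKM in NPI-1, NPI-2 and NPI-3, against 4.63, 2.60 and 3.98 FPKM in DI-1, DI-2 and DI-3. Every NPI library lay well above every DI library, NPI-2 included. The log2 difference was 3.52 with a standard error of 0.387 and an edgeR adjusted p of 0.0608. Without NPI-2 it was 3.74 with an edgeR adjusted p of 0.022, and over all alternatives the adjusted p ran from 1.51e-14 (DESeq2) to 0.30.

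The most abundant alpha-expansin did not separate the groups. Expansin-A14 (Zm00001d040379, chromosome 3, 40803245 to 40804697) had 2.61, 163 and 5.26 FPKM in the NPI libraries, against 85.2, 38.3 and 26.6 FPKM in the DI libraries. NPI-2 held the highest level of all libraries, and NPI-1 and NPI-3 the lowest. With all libraries the log2 difference was 0.10 with a standard error of 1.33 and an edgeR adjusted p of 0.974. Without NPI-2 it was -3.50 with an edgeR adjusted p of 0.0357, which is a call in the lower direction, and over the alternatives the adjusted p ran from 0.0357 to 0.994.

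A neighbouring pair of genes described as Expansin-A11 lay 29.7 kb apart on chromosome 1. Both had NPI-1 and NPI-3 below every other library, as Expansin-A14 had. Zm00001d027717 (12042589 to 12043629), the third most abundant alpha-expansin, had 0.38, 35.2 and 2.36 FPKM in the NPI libraries, against 41.8, 6.41 and 10.8 FPKM in the DI libraries. NPI-2 lay among the DI libraries in this gene, and the groups overlapped. Its log2 difference was -0.72 with all libraries (edgeR adjusted p = 0.80) and -3.65 without NPI-2 (edgeR adjusted p = 0.0925, and 0.0925 to 0.960 over the alternatives). Its neighbour Zm00001d027718, named because it was one of the 2 genes called lower without NPI-2, had 0.31, 1.92 and 0.10 FPKM in the NPI libraries, against 6.43, 2.67 and 2.33 FPKM in the DI libraries. All NPI libraries lay below all DI libraries, with a log2 difference of -2.34 (edgeR adjusted p = 0.244) and of -4.03 without NPI-2 (edgeR adjusted p = 0.0383), and the adjusted p over the alternatives ran from 0.0383 to 0.565.

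The 3 tested root cap genes, Expansin-A14 and the Expansin-A11 pair were lower in NPI-1 and NPI-3 than in NPI-2. Not every alpha-expansin had this pattern, and alpha expansin2 and alpha expansin5 had their lowest NPI level in NPI-2. NPI-2 was the highest of all libraries for 3 of the 15 tested alpha-expansins, against 27.3% of all tested genes. The 4 genes whose names hold the words root cap summed to 28.0, 141 and 39.7 FPKM in the NPI libraries, against 231, 157 and 110 FPKM in the DI libraries. All 3 of them that were tested had a negative log2 difference, with a median of -2.99, and edgeR called 0 of them. Without NPI-2 the median was -6.32, and edgeR called 2 of the 3 lower, against 5.19% of all tested genes. The gene of the list below the filter, Zm00001d052527, had 0 FPKM in every NPI library, NPI-2 included. In DI-1, DI-2 and DI-3 it had 4.09, 0.24 and 0.03 FPKM. Root cap protein1 (Zm00001d036091), a marker of the labelled tissue, was present in every library, at 27.5 to 115 FPKM in NPI and 78.3 to 109 FPKM in DI. A gene described as a root cap-specific protein, Zm00001d045420, had 0.48, 24.9 and 0.97 FPKM in the NPI libraries, against 106, 59.5 and 31.9 FPKM in the DI libraries. It was near 0 in NPI-1 and NPI-3, where Expansin-A14 and the Expansin-A11 pair were low. In NPI-2 it lay below every DI library, whereas Expansin-A14 lay above every DI library. The gene root-cap periphery1 (Zm00001d041984), spelled with a hyphen and named after its values were seen, had 0, 3.63 and 0.29 FPKM in the NPI libraries, against 160, 23.0 and 6.43 FPKM in the DI libraries. The part of root cap RNA in the alpha-expansin values was not tested.

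**Figure D4:**
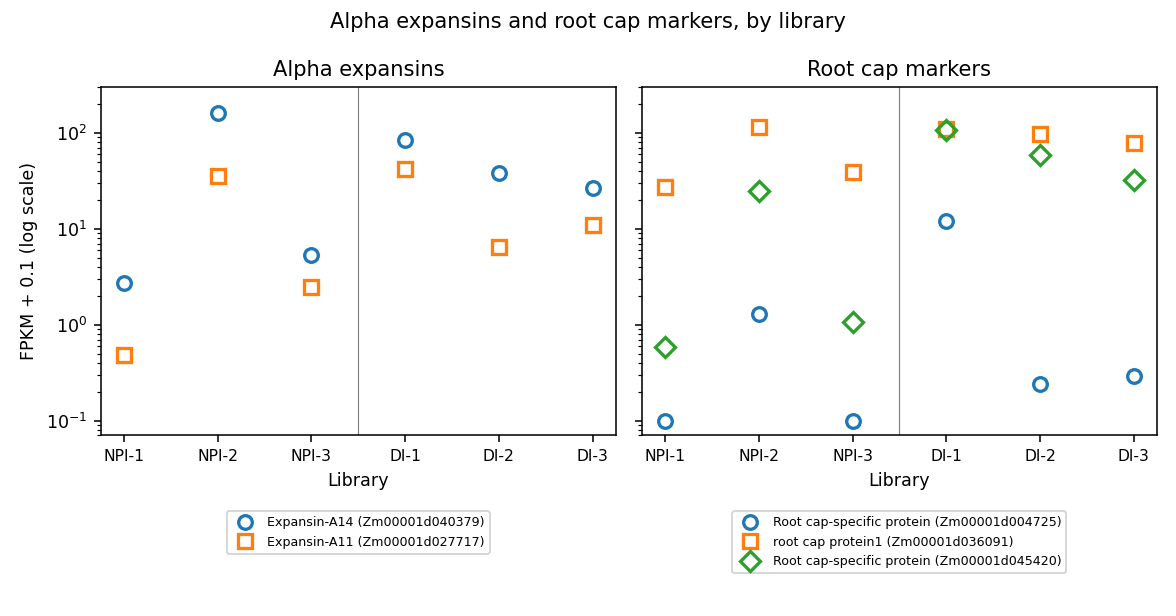
FPKM + 0.1 on a log scale in each library for Expansin-A14 (Zm00001d040379) and Expansin-A11 (Zm00001d027717) on the left and for the 3 tested root cap genes on the right, NPI libraries left of the grey line and DI libraries right of it. Both alpha-expansins and all 3 root cap genes are lower in NPI-1 and NPI-3 than in NPI-2. Other alpha-expansins, not drawn, do not share this pattern, such as alpha expansin2, which is lower in NPI-2 than in NPI-1 and NPI-3.

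Genes of xylem wall synthesis and xylem naming summed to 747, 360 and 898 FPKM in the NPI libraries. In the DI libraries the sums were 383, 414 and 479 FPKM. Of the tested members, 23 of 28 were positive, against 54.0% of all tested genes. Of these 28 genes, 7 had an unadjusted p under 0.05 by edgeR, all higher in NPI (background 12.3%). At the adjusted threshold 0 passed (background 0.0137%). Without NPI-2 edgeR called 9 higher (background 6.65%), and DESeq2 called 4 higher with all libraries (background 6.84%). NPI-2 was the lowest of all libraries in the summed level, as it was for the expansin-like genes. Zm00001d029783 was the largest part of the expansin-like sum in every library but NPI-1. In Zm00001d048344 and expansin-like6 NPI-2 lay above every DI library. Genes matched by the pattern for root hair summed to 147, 96.7 and 119 FPKM in the NPI libraries. In the DI libraries the sums were 133, 139 and 152 FPKM. Of the tested members, 4 of 11 were positive, against 54.0% of all tested genes. They take in genes described as ROOT HAIR DEFECTIVE 3, such as Zm00001d044271, which averaged 29.8 FPKM in NPI and 43.5 FPKM in DI. The match was by name only, and the sum is not a level of root hairs alone. Casparian strip genes, which mark the endodermis, were near 0 throughout, at 1.87 to 5.80 FPKM in NPI and 0.85 to 4.33 FPKM in DI. Genes matched by the pattern for dividing cells summed to 472 to 619 FPKM in NPI and 432 to 580 FPKM in DI. They take in cyclins, cyclin-dependent kinases and their regulatory subunits, and also inhibitors of these kinases. The inhibitor EL2 (Zm00001d048533) averaged 68.8 FPKM in NPI and 70.0 FPKM in DI. The sum mixes these classes and is not a level of dividing cells alone. The part of cell makeup in the expansin values was not tested.

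A pair of alpha-expansins with low levels in NPI rested on the library DI-1. Expansin-A13 (Zm00001d016054, chromosome 5, 141752732 to 141753952) had 0, 0 and 0.20 FPKM in the NPI libraries, against 9.25, 0.08 and 0.62 FPKM in the DI libraries. Expansin-A11 (Zm00001d032886, chromosome 1, 241477943 to 241478701) had 0.29, 0 and 0.07 FPKM in the NPI libraries, against 6.12, 0.25 and 1.28 FPKM in the DI libraries. In both genes DI-1 was far above the other DI libraries, and the groups overlapped. Their log2 differences were -5.43 (standard error 2.19, edgeR adjusted p = 0.222) and -4.24 (standard error 1.60, edgeR adjusted p = 0.203), and without DI-1 they were -2.21 and -2.53, with an edgeR adjusted p of 0.673 and 0.55. The smallest adjusted p over the alternatives came from DESeq2, at 0.0375 for Zm00001d016054 and 0.0428 for Zm00001d032886.

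The same library held the highest level of most weak alpha-expansins. DI-1 was the highest library for 13 of the 14 alpha-expansins detected below the filter and for 8 of the 15 tested, against 15.9% and 14.6% of all genes in these classes of abundance. Over the 14 weak genes, counts summed to 75 in NPI and 1460 in DI, and 78.4% of the DI counts came from DI-1. The 7 alpha-expansins within 222.9 kb of chromosome 1, from 241255757 to 241478701, all had their highest level in DI-1, where they summed to 14.2 FPKM, against 0.60 and 2.75 FPKM in DI-2 and DI-3 and at most 0.47 FPKM in an NPI library. DI-1 was also the highest library for the summed root cap genes given above.

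The remaining alpha-expansins include genes studied in maize roots at low water potential. Alpha expansin1 (Zm00001d043047) had 1.6, 4.62 and 0.44 FPKM in the NPI libraries, against 2.18, 1.29 and 1.04 FPKM in the DI libraries, and the groups overlapped (log2 difference 0.53, edgeR adjusted p = 0.710). Alpha expansin5 (Zm00001d038476) had 14.2, 8.42 and 13.6 FPKM in the NPI libraries, against 26.5, 14.4 and 17.1 FPKM in the DI libraries. Every NPI library lay below every DI library, by a margin that was narrow for NPI-1 against DI-2 (log2 difference -0.59, edgeR adjusted p = 0.404). These 2 genes were named for that background after their values were seen. Alpha-expansin4 (Zm00001d034663) reached 46.2 FPKM in NPI-3, against 10.4 and 3.54 FPKM in NPI-1 and NPI-2 and 7.58 to 11.3 FPKM in DI. Over the 10 tested alpha-expansins outside the naming rule, log2 differences ran from -2.34 to 1.18, with 3 positive and 7 negative, and edgeR adjusted p from 0.244 to 0.927.

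Among the beta-expansins, the gene described as Beta-expansin 3 (Zm00001d017377, chromosome 5, 193862002 to 193866500) had the largest positive log2 difference of the tested expansin genes. It had 55.1, 18.3 and 60.5 FPKM in NPI-1, NPI-2 and NPI-3, against 1.20, 0.54 and 1.77 FPKM in DI-1, DI-2 and DI-3. All NPI libraries were higher than all DI libraries, and NPI-2 was the lowest of its group. The log2 difference was 5.35 with a standard error of 0.725 and an edgeR adjusted p of 0.0619. Without NPI-2 it was 5.76 with an edgeR adjusted p of 0.022, and over the alternatives the adjusted p ran from 2.12e-14 to 0.30.

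A different gene carries the name beta expansin3 (Zm00001d027283, chromosome 1, 1715993 to 1716949). It had 10.0, 20.8 and 25.5 FPKM in the NPI libraries, against 3.58, 5.16 and 1.91 FPKM in the DI libraries, without overlap. Its log2 difference was 2.49 with a standard error of 0.519 and an edgeR adjusted p of 0.0894, and without NPI-2 it was 2.51 with an edgeR adjusted p of 0.0454. Over the alternatives the adjusted p ran from 2.42e-04 to 0.317.

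The remaining beta-expansins with higher levels in NPI overlapped with DI. Beta expansin8 (Zm00001d047087, chromosome 9, 118041045 to 118043785), which has also been studied in maize roots at low water potential, had 47.3, 45.5 and 6.09 FPKM in the NPI libraries, against 6.97, 5.25 and 5.34 FPKM in the DI libraries. NPI-1 and NPI-2 were high and NPI-3 lay within the DI range. Its log2 difference was 2.50 with a standard error of 0.661 and an edgeR adjusted p of 0.123, and without NPI-2 it was 2.28 with an edgeR adjusted p of 0.0857. Beta expansin2 (Zm00001d029899, chromosome 1, 93193094 to 93195786) had 57.5, 110 and 35.4 FPKM in the NPI libraries, against 39.1, 18.7 and 23.6 FPKM in the DI libraries. NPI-3 lay below DI-1, and the log2 difference was 1.32 with a standard error of 0.434 and an edgeR adjusted p of 0.166. DESeq2 gave these genes adjusted p of 0.00247 and 0.0446, and over the alternatives the adjusted p reached 0.381 and 0.446.

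The beta-expansins with a p under 0.05 and a lower level in NPI, and beta expansin6, lay in the same neighbourhoods as beta expansin2 and beta expansin8. Beta expansin7 (Zm00001d029906, chromosome 1, 93520069 to 93521826) had 6.94, 1.03 and 0.18 FPKM in the NPI libraries, against 7.82, 29.2 and 51.6 FPKM in the DI libraries. NPI-1 came within 1 FPKM of DI-1, and the other libraries were far apart. Beta expansin6 (Zm00001d029913, 93847218 to 93848525), the most abundant beta-expansin in DI, had 18.6, 5.75 and 21.2 FPKM in the NPI libraries, against 23.7, 42.7 and 61.5 FPKM in the DI libraries. All NPI libraries were below all DI libraries in both genes. The log2 differences were -3.39 (standard error 1.27, edgeR adjusted p = 0.202) for beta expansin7 and -1.37 (standard error 0.592, edgeR adjusted p = 0.245) for beta expansin6, and over the alternatives the adjusted p ran from 0.0152 to 0.428 and from 0.125 to 0.492.

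Of the genes described as Expansin-B4, 3 had a lower level in NPI with an unadjusted p under 0.05. Zm00001d029903 (chromosome 1, 93424792 to 93426256) had 3.57, 1.26 and 0.48 FPKM in the NPI libraries, against 10.9, 6.0 and 12.6 FPKM in the DI libraries. Zm00001d047091 (chromosome 9, 118283556 to 118284905) had 10.2, 4.0 and 6.25 FPKM in the NPI libraries, against 23.4, 19.6 and 18.0 FPKM in the DI libraries. Zm00001d047093 (chromosome 9, 118315435 to 118316761) had 0, 0.27 and 0.32 FPKM in the NPI libraries, against 28.9, 1.3 and 2.37 FPKM in the DI libraries. The groups did not overlap in any of these 3 genes, and in the last one DI-1 stood far above the other DI libraries. Log2 differences were -2.43 (standard error 0.737, edgeR adjusted p = 0.148), -1.49 (standard error 0.416, edgeR adjusted p = 0.133) and -5.69 (standard error 1.69, edgeR adjusted p = 0.144), and the last was -3.12 without DI-1 (edgeR adjusted p = 0.455). DESeq2 gave adjusted p of 0.0116, 0.0157 and 5.64e-04, and over the alternatives the adjusted p reached 0.396, 0.389 and 0.455.

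Expansin genes often lie side by side. With members joined where they lay less than 1 Mb apart, 70 of the 95 genes fell into 17 neighbourhoods and 25 stood alone. Of 12 pairs of tested members next to each other in a neighbourhood, 8 had log2 differences of the same sign and 4 of opposite sign. These pairs share members, and Zm00001d016022 and Zm00001d016054 lay 1678.2 kb apart with untested members between them. Signs were not compared over pairs that lie apart, so these counts do not show an effect of place. On chromosome 1, 5 beta-expansins lay within 655.4 kb, with beta expansin2 positive, 3 genes negative and 1 below the filter. On chromosome 9, 7 beta-expansins lay within 461.1 kb, with 2 positive, 4 negative and 1 at 0. There, beta expansin8 had a log2 difference of 2.50 and beta expansin5 (Zm00001d047089), 24.1 kb away, one of -0.90. The last gene of that row, Zm00001d047096, had 1.5, 62.7 and 6.78 FPKM in the NPI libraries, against 40.3, 4.17 and 18.0 FPKM in the DI libraries, so that NPI-2 was the highest and NPI-1 the lowest library. It and beta expansin5 were named for their place in this row. Over the 8 tested beta-expansins outside the naming rule, log2 differences ran from -1.56 to 0.59, with 3 positive and 5 negative, and edgeR adjusted p from 0.287 to 0.984.

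**Figure D5:**
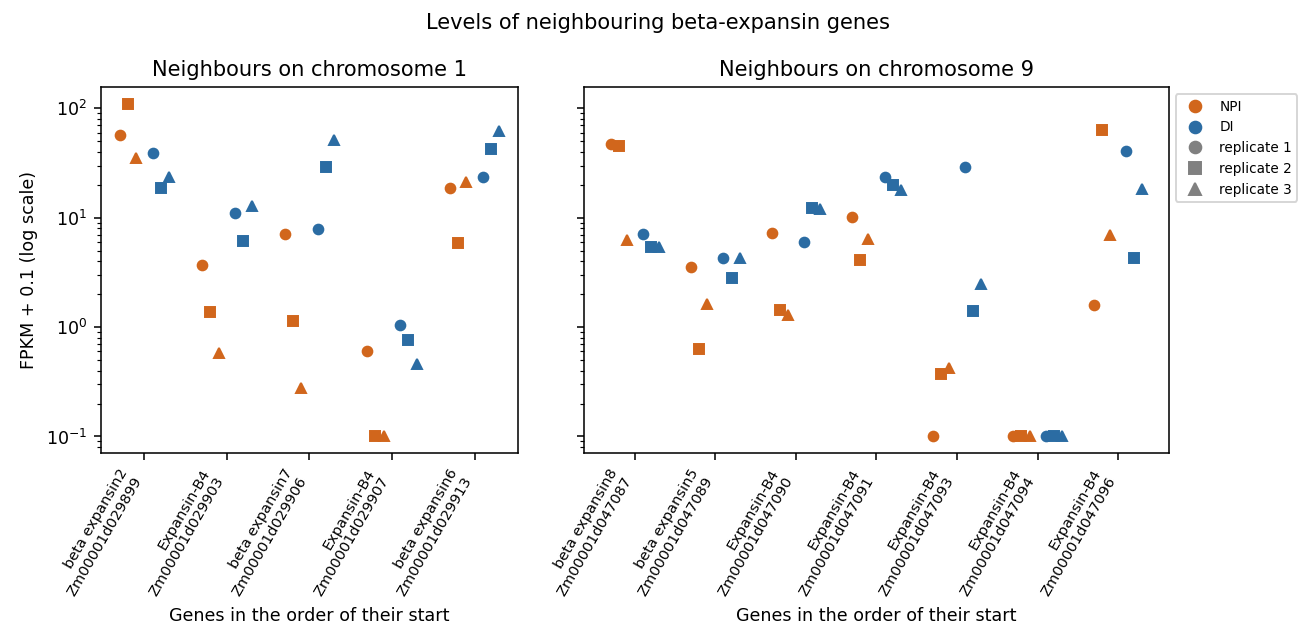
FPKM + 0.1 on a log scale for the 5 neighbouring beta-expansins on chromosome 1 (left) and the 7 on chromosome 9 (right), in the order of their start, NPI in orange and DI in blue, with a marker shape per replicate. Beta expansin2 and beta expansin8, the first gene of each row, are higher in NPI-1 and NPI-2 than in every DI library. In both genes NPI-3 lies within the DI range. Most genes after them have a lower mean in NPI.

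Whole neighbourhoods were without counts. Of the 37 genes at 0, 32 lay in neighbourhoods, and 5 neighbourhoods held no detected member. They include 8 beta-expansins between 205527426 and 205616553 of chromosome 5, among them EXPB10, 8 alpha-expansins on chromosome 6, and 4 beta-expansins on chromosome 9 that include EXPB1, beta expansin1 and lo1 pI allergen homolog1. EXPB1 and EXPB10 are known as maize pollen allergens. A count of 0 allows a level of up to 0.0455 to 0.0501 CPM (counts scaled to library size) in an NPI library and 0.0417 to 0.0519 CPM in a DI library, taking 3 counts as the limit and covering counting error only.

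Of the 5 expansin-like genes, 2 had a higher level in NPI in every library. Expansin-like A2 (Zm00001d048344, chromosome 9, 154803800 to 154805750) had 16.6, 9.57 and 12.9 FPKM in NPI-1, NPI-2 and NPI-3, against 1.01, 2.03 and 1.48 FPKM in DI-1, DI-2 and DI-3. The groups were far apart, and the log2 difference was 3.19 with a standard error of 0.414 and an edgeR adjusted p of 0.0619. Expansin-like6 (Zm00001d027520, chromosome 1, 7356309 to 7358599) had 33.7, 15.3 and 20.9 FPKM in the NPI libraries, against 8.61, 12.4 and 6.34 FPKM in the DI libraries. NPI-2 came closest to DI, and the log2 difference was 1.44 with a standard error of 0.398 and an edgeR adjusted p of 0.130. Without NPI-2 the edgeR adjusted p was 0.022 for Zm00001d048344 and 0.0346 for expansin-like6. Over the alternatives it ran from 1.73e-10 to 0.30 and from 0.0183 to 0.390.

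The more abundant expansin-like genes did not separate the groups. Zm00001d029783, also described as Expansin-like A2 (chromosome 1, 86734087 to 86736135), had the highest mean of all expansin genes, at 77.5, 41.1 and 194 FPKM in the NPI libraries, against 88.0, 112 and 145 FPKM in the DI libraries. NPI-3 was the highest and NPI-2 the lowest library, and the edgeR adjusted p was 1.0. Zm00001d006360 (chromosome 2, 205697587 to 205699901) had 97.8, 11.9 and 9.96 FPKM in the NPI libraries, against 18.7, 27.0 and 16.4 FPKM in the DI libraries. NPI-1 alone was high. Its log2 difference was 1.02 (edgeR adjusted p = 0.528), and without NPI-1 it turned to -0.86. The fifth gene, Zm00001d014826, was below the filter and reached 3.64 FPKM in NPI-2.

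Other genes of wall loosening were read from lists matched by name. Plasma membrane proton pumps acidify the wall, SAUR proteins keep those pumps active in response to auxin, xyloglucan endotransglucosylase/hydrolases and endo-1,4-beta-glucanases remodel or cut wall glucans, and pectin methylesterases alter pectin. At an edgeR adjusted p of 0.05, 0 genes passed in each of these 5 lists. Unadjusted p under 0.05 was found for 8 higher and 0 lower of 30 tested SAUR genes, 4 higher and 1 lower of 25 xyloglucan genes, 3 higher and 0 lower of 12 glucanases, 2 higher and 1 lower of 8 pectin methylesterases, and 0 of 2 proton pumps, against the backgrounds of 12.3% and 8.52% given above. Median log2 differences were 0.59, 0.71, 0.95, 0.19 and 0.55 in the same order of lists, and without NPI-2 they were 0.77, 0.97, 0.87, 0.054 and 0.74. With a transcript length trend removed they were 0.27, 0.52, 0.91, 0.15 and 0.82. DESeq2 called 6, 3, 3, 2 and 0 genes of these lists higher in NPI, and 1 pectin methylesterase lower, against the DESeq2 backgrounds of 6.84% and 4.53%.

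Within these lists, SAUR12 (Zm00001d018200) averaged 44.8 ± 18.1 FPKM in NPI and 4.85 ± 1.03 FPKM in DI (SD, n = 3 each), with a log2 difference of 3.27 and an edgeR adjusted p of 0.0613. A pectinesterase, Zm00001d042625, averaged 85.4 ± 35.4 FPKM in NPI and 17.2 ± 3.77 FPKM in DI (SD, n = 3 each), with a log2 difference of 2.42 and an edgeR adjusted p of 0.0724. Endoglucanase 6 (Zm00001d010446) had 1.35, 1.03 and 6.1 FPKM in the NPI libraries, against 0.09, 0.05 and 0 FPKM in the DI libraries. Its log2 difference of 6.09 (edgeR adjusted p = 0.101) was thus taken against levels near 0. For xyloglucan endotransglucosylase/hydrolase 28 (Zm00001d047970) the log2 difference was 2.78 (edgeR adjusted p = 0.115). Each of these 4 genes had an edgeR adjusted p between 0.022 and 0.0379 without NPI-2, and over the alternatives the adjusted p of each reached 0.30 to 0.368. The genes of smallest p in the lower direction were SAUR33 (Zm00001d050093, log2 difference -1.02, edgeR adjusted p = 0.398), xyloglucan endotransglucosylase/hydrolase 21 (Zm00001d026251, -2.87, 0.227, and 0.0429 without NPI-2, with a range of 0.0429 to 0.586 over the alternatives) and the pectinesterase Zm00001d050082 (-1.71, 0.133). Zm00001d026251 had 0.09, 1.29 and 0.12 FPKM in the NPI libraries, against 7.48, 1.31 and 1.85 FPKM in the DI libraries. DI-1 stood above the other DI libraries in it, and NPI-2 lay close to DI-2. The proton pump with the smaller p was proton-exporting ATPase4 (Zm00001d026490). It averaged 107 ± 37.9 FPKM in NPI and 79.8 ± 15.4 FPKM in DI (log2 difference 0.53, edgeR adjusted p = 0.503).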

How the data were processed

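Per the labels' protocols, poly(A) RNA was sequenced as read pairs. FastQC 0.10.1 for read quality, the aligner HISAT2 2.0, StringTie 1.3.4 and edgeR are named, per the submitters' processing notes. The genome build and the handling of strand are not given there. The authors deposited 1 table with estimated counts and FPKM per library; the estimated counts are whole numbers and were used unrounded. FPKM in the deposited table gave the filter (mean of at least 1) and the printed levels.

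From the counts, edgeR 4.0.16 (quasi-likelihood, legacy estimate, TMM factors, R 4.3.3) tested NPI minus DI, two-sided, with Benjamini-Hochberg adjustment over 21902 genes at 0.05. The script was tested on simulated data. There it called 28 of 100 genes changed 4-fold, 84 of 100 changed 16-fold and 5 of 21702 unchanged genes. Class sums had an exact permutation test (scipy 1.17.1). Alternatives were DESeq2 1.42.0, limma 3.58.1 on log2(FPKM + 1) and log2(FPKM + 0.1), RLE factors, 2 other filters, the newer estimate, a replicate block, removal of a transcript length trend and each library left out. Leaving libraries out of class sums was added after seeing the data.

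Members and lists were chosen with earlier results of these data known. Values in every library are given for members with an unadjusted p under 0.05 and for the 3 most abundant members of each class; from each list, the gene of smallest p in each direction is named. Other named genes were chosen after their values were seen. Total counts were 57792439 to 71957443 a library, so that 3 counts in a library stand for 0.0417 to 0.0519 CPM.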

Additional observations from a re-analysis of the deposited data

How the results depend on the processing

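With 3 libraries a group and NPI-2 apart from NPI-1 and NPI-3, calls depend on the setting. Over all tested genes edgeR called 2 higher and 1 lower. DESeq2 called 1499 and 992, limma 99 and 39 on log2(FPKM + 1) and 99 and 30 on log2(FPKM + 0.1), the newer estimate 17 and 9, and no filter 13 and 5. Leaving out each library gave 0 to 1457 higher and 0 to 1136 lower, the highest both without NPI-2. Same-numbered libraries had correlated deviations of -0.236, 0.169 and 0.162, and differently numbered ones of -0.356 to 0.268. Deviations from a mean of 3 libraries are not free of each other, so these values cannot decide whether the numbers pair libraries. The numbers are those of the titles, and the labels' descriptions give DI-2 the same repeat number as DI-3, so the block's numbering is in doubt. The fit with a replicate block called 1 higher and 0 lower, and 0 expansins.

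Expansins called higher were 0 in the reported fit, 7 by DESeq2, 3 by limma with either pseudocount, 1 by the newer estimate, 1 with no filter and 0 to 5 leaving out each library. Expansins called lower were 6 by DESeq2 and 0 to 2 leaving out each library. SAUR genes called higher were 6 by DESeq2, 1 by limma with either pseudocount, by the newer estimate and with no filter, and 0 to 4 leaving out each library, with 0 to 1 lower. DESeq2 called 3 xyloglucan genes, 3 glucanases and 2 pectin methylesterases higher and 1 pectin methylesterase lower. Leaving out each library gave 0 to 3 higher and 0 to 1 lower xyloglucan genes, 0 to 2 higher glucanases and 0 to 1 higher pectin methylesterases.

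The median log2 difference of all tested expansins was -0.60 and -0.68 by limma with pseudocounts of 1 and 0.1, -0.62 with the block, and -0.58 to 0.14 leaving out each library. The alpha median was -0.99 to 0.054 leaving out each library, positive without DI-1. The beta median was -0.73 by limma with a pseudocount of 0.1, -0.99 with the block and -0.78 to -0.0040 leaving out each library. With the length trend removed, medians were -0.33 over all tested expansins, -0.72 over alpha, -0.45 over beta and 1.15 over expansin-like genes.

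Signs turned for Expansin-A14 (Zm00001d040379), at -0.030 with the length trend removed, -1.55 and -1.73 by limma with pseudocounts of 1 and 0.1, -1.88 with the block and -3.50 to 0.74 leaving out each library. They also turned leaving out a library for Zm00001d027717 (-3.65 to 0.48), Zm00001d029783 (-0.94 to 0.41) and Zm00001d006360 (-0.86 to 1.47), and for the difference of alpha sums (-41.0 to 67.4 FPKM). The cause was not tested.

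At these depths counting error limits the genes below the filter, whose counts are few, more than it limits abundant members.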
